A study of Mus musculus with 5 samples.

Results

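Galectins are sugar-binding proteins, and 5 of their genes, Lgals1, Lgals3, Lgals7, Lgals8 and Lgals9, were followed through regulatory T (Treg) cells with altered Malt1. The members were the rows with these gene symbols, chosen as galectins that T cells express. All 5 were found among the 38130 entries of each file, and all 5 passed the filter on low values that left 11294 genes for testing. Malt1 encodes a paracaspase that relays antigen receptor signals to NF-kB. RNA was sequenced from CD4+YFP+ cells sorted from C57BL/6 mice, and every group carries a Foxp3-driven Cre with a yellow fluorescent reporter, so the Foxp3 promoter sets which cells lose or keep Malt1. The 4 groups were KO (Foxp3Cre-YFP with malt1fl/fl, Malt1 deleted in Treg cells, age 21 days, 1 library), KI (Foxp3Cre-YFP with malt1fl/C472A, labelled as having inhibited Malt1 protease activity, age 6 weeks, 2 libraries), wild-type (WT) reporter mice aged 6 weeks (6-week WT, 1 library) and WT reporter mice aged 21 days (21-day WT, 1 library). KI cells hold a floxed allele beside the C472A allele, so the substitution is not their only difference from WT. The question behind the design is what Malt1 deletion, and loss of the protease alone, change relative to WT Treg cells of the same age. The number of mice behind a library, and whether libraries came from separate animals, is not stated, so the p-values below reflect only how far these samples scatter, which can be technical scatter.

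Galectins bind beta-galactosides, above all N-acetyllactosamine on branched glycans of surface proteins, and can be secreted without a signal peptide or stay in the cytosol and nucleus. They are sorted by build. The prototype galectins 1 and 7 have a lone carbohydrate-binding domain and pair up, the chimera galectin 3 joins its domain to a tail through which it forms oligomers, and the tandem-repeat galectins 8 and 9 carry a pair of linked domains. In T cells galectin 1 is known as a product of Treg cells that contributes to suppression, galectin 3 as a gene of activated T cells, and galectin 9 as a ligand of Tim-3.

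FPKM hold no read counts, and depth estimated from the deposited bounds was 7.64 M fragments in KO, 23.7 and 23.3 M in KI replicates 1 and 2, 6.71 M in 6-week WT and 27.5 M in 21-day WT. The shallow libraries were therefore 1 mutant and 1 WT library of different ages. KO was shallow and its control of the same age deep, while both KI libraries were deep and their control shallow. Genotype and depth therefore cannot be told apart in either comparison within an age. Over the 11294 genes KO correlated with 6-week WT at r = 0.94 and with 21-day WT at r = 0.88 (log2 scale, across genes, which are not independent replicates). Malt1 itself was at 17.6 scaled FPKM in KO, 55.9 and 37.8 in KI, 15.2 in 6-week WT and 27.0 in 21-day WT. Its level for the whole gene did not set KO apart from WT, and which exons are floxed is not given in the sources used here, so the library is called the KO-labelled library below. The labelled cell type was checked by Foxp3, at 30.5 scaled FPKM in the KO-labelled library, 70.1 and 73.6 in KI, 39.5 in 6-week WT and 70.7 in 21-day WT, and by Cd3e and Cd4, each above 100 scaled FPKM in every library. Summed over 15 Treg identity genes, the levels were 1192, 1797, 1700, 1144 and 1577.5 in the same order. Against 21-day WT, 6 of the 15 were higher and 9 lower in the KO-labelled library. Ctla4, Foxp3, Ikzf2 and Nrp1 were past 2-fold lower on the log2 scale, as were 8.15% of all tested genes, and 0 were past 2-fold higher (6.14% of all). Summed myeloid markers were 186 scaled FPKM in the KO-labelled library, 205 and 160 in KI, 316 in 6-week WT and 183 in 21-day WT, and plasmacytoid dendritic cell markers were 46.7, 21.6, 28.6, 149 and 45.4 in the same libraries. 6-week WT thus held the most of both marker lists, and it is the control of the same age for KI.

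The sequences just before the starts of Lgals3 and Lgals7 are shown because these genes were the members furthest above WT in the KO-labelled library, and that of Lgals9 because its level there was near that of 21-day WT. Each is the part of RefSeq's promoter window (250 bases before to 50 after the start, GRCm38.p6) that holds no annotated exon, given 5′ to 3′ on the gene's strand, with every match on either strand to a loose form of the NF-kB site (3 G, then 5 bases of any kind, then 2 C) in capitals. The AP-1 motif TGANTCA was searched too and had no match. RefSeq's table matched 4 of the 5 members, and Lgals1 is named only.
Lgals3 (chr14:47373610-47373812, + strand, within an intron of the longer gene in the deposited annotation): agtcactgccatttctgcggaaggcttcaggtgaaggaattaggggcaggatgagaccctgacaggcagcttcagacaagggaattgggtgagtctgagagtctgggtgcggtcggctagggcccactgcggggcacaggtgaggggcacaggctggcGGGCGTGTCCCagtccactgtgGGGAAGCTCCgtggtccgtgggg
Lgals7 (chr7:28864136-28864228, + strand, within an intron of the longer gene in the deposited annotation): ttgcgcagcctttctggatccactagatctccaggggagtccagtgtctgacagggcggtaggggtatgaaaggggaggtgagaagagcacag
Lgals9 (chr11:78984947-78985174, - strand, upstream of the gene): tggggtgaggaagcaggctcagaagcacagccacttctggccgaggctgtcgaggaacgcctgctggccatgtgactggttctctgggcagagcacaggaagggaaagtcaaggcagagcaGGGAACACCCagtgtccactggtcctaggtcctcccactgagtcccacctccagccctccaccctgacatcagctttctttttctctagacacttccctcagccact
The NF-kB-like letters matched 3 times in the stretch shown for Lgals3, where a pair of matches on opposite strands overlaps, and 2 times in that for Lgals9, on both strands of the same bases. They had 0 matches in that of Lgals7. In the whole windows of 300 bases the counts were 5, 0 and 2, and 6 for Lgals8, and 50.8% of 32851 RefSeq promoters hold at least 1. Lgals3, with 5 matches, and Lgals7, with 0, were both far above WT in the KO-labelled library, as described below. Any link between these matches and the levels was not tested.

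Lgals1 was the most abundant of the 5 galectin transcripts in every library, and the KO-labelled library was the exception in the order of the others. Levels are FPKM divided by a scaling factor for each library (scaled FPKM), which count fragments per kilobase and can be compared between genes. In both KI and both WT libraries the order was Lgals1, Lgals9, Lgals8, Lgals3, Lgals7. In the KO-labelled library it was Lgals1, Lgals3, Lgals9, Lgals7, Lgals8, and there the bounds of Lgals3 and Lgals9, and those of Lgals7 and Lgals8, did not overlap. Among the 11294 tested genes Lgals3 stood at the percentile 94.5 in the KO-labelled library, at 52.4 and 56.0 in KI, at 56.9 in 6-week WT and at 24.3 in 21-day WT. The summed level of the 5 genes was 648 scaled FPKM in the KO-labelled library, 225 and 375 in KI, 399 in 6-week WT and 236 in 21-day WT.

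**Figure D1:**
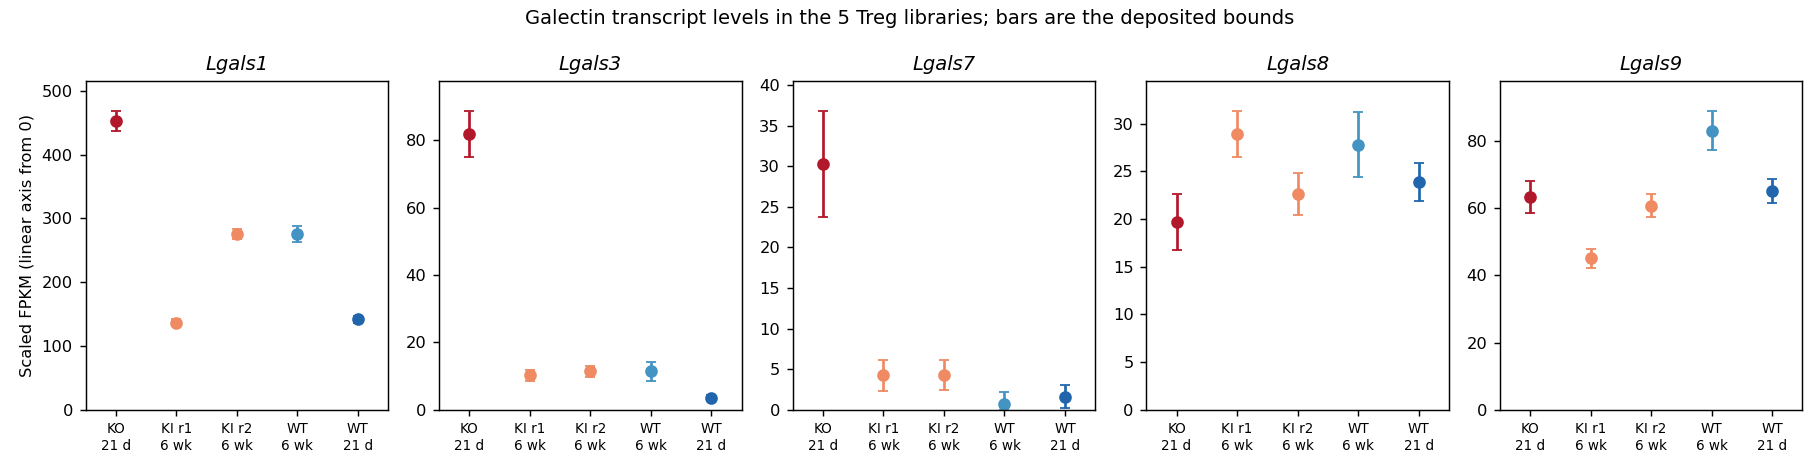
Scaled FPKM (vertical axes, linear from 0) of the 5 galectin genes in each library (horizontal axes), with bars for the deposited lower and upper bounds, which cover error within a library. Lgals1, Lgals3 and Lgals7 are highest in the KO-labelled library, at 453, 81.9 and 30.3, and Lgals8 and Lgals9, at 19.7 and 63.3 there, are not.

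Lgals3 made up 12.6% of the summed galectin level in the KO-labelled library, against 4.52% and 3.04% in KI, 2.86% in 6-week WT and 1.46% in 21-day WT. Lgals9 made up 9.77% in the KO-labelled library, against 20.1% and 16.2% in KI, 20.8% in 6-week WT and 27.6% in 21-day WT. The share of Lgals1 lay between 60.1% and 73.6% in the 5 libraries, so the shares of the less abundant galectins differed more between libraries than that of Lgals1 relative to their size.

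**Figure D2:**
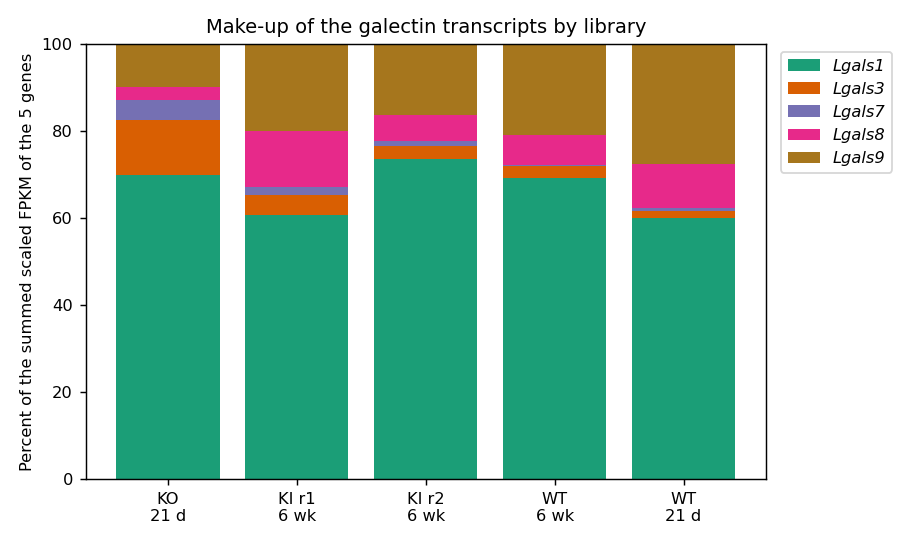
Percent of the summed scaled FPKM of the 5 galectin genes (vertical axis) taken by each gene (coloured segments) in each library (horizontal axis). Lgals1 takes 60.1% to 73.6% everywhere, and the segments of Lgals3 and Lgals7 are widest in the KO-labelled library, at 12.6% and 4.67%.

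Lgals1, the prototype galectin made by Treg cells (ENSMUSG00000068220, chr15:78926725-78930465 on GRCm38, + strand), was at 453 scaled FPKM in the KO-labelled library, 137 and 276 in KI, 276 in 6-week WT and 142 in 21-day WT. The KO-labelled library was highest, KI replicate 2 lay at the level of 6-week WT, and KI replicate 1 lay at that of 21-day WT, so the KI libraries and the WT libraries spanned the same range. On the scale log2(scaled FPKM + 1) the KO-labelled library was 1.67 above 21-day WT (95% interval from the bounds 1.60 to 1.74) and 0.71 above 6-week WT (0.63 to 0.80). These intervals take in the error of counting and assigning reads in 1 library, not the spread between mice, and in bulk RNA fewer cells of a type and less RNA per cell cannot be told apart. The WT libraries themselves differed by 0.96 (6 weeks minus 21 days), which is more than the 0.71 between the KO-labelled library and 6-week WT. KI averaged 206 ± 98.4 scaled FPKM (SD, n = 2) against 276 in 6-week WT, a log2 difference of -0.50 (SE 0.54, limma adjusted p = 0.73). The KI replicates were 2.02-fold apart, past 2-fold on the log2 scale, as were 744 of the 11294 genes (6.59%).

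Lgals7, the other prototype galectin, is best known from stratified epithelia and is scarce in lymphocytes (ENSMUSG00000053522, chr7:28863853-28866284, + strand). It was at 30.3 scaled FPKM in the KO-labelled library, 4.24 and 4.31 in KI, 0.755 in 6-week WT and 1.62 in 21-day WT. All 3 mutant libraries lay above both WT libraries, with the KO-labelled library far above KI. The WT values rest on few reads: the bounds correspond to 1.03 fragments in 6-week WT and 5.25 in 21-day WT, against 85.7 in the KO-labelled library and 19.6 and 22.4 in KI. The KO-labelled library was 3.58 above 21-day WT (2.76 to 4.40) and 4.16 above 6-week WT (2.92 to 5.39) on the log2 scale. KI averaged 4.27 ± 0.0530 scaled FPKM (SD, n = 2), a log2 difference of 1.59 from 6-week WT (SE 0.28), with an unadjusted p of 0.0080 and an adjusted p of 0.38 in limma, so it was not called. Against 21-day WT the KI replicates were 1.001 and 1.02 higher, and there the bounds of KI and WT overlapped. Of 10 stromal and epithelial markers, the keratins Krt5, Krt8 and Krt14 were listed at 0 in all 5 libraries. Krt18, Col1a1 and Col1a2 were highest in the KO-labelled library, Epcam and Pdgfra in KI replicate 2, and Pecam1 and Cdh5 in 6-week WT. Krt18, a keratin of simple epithelia, was at 1.87 scaled FPKM in the KO-labelled library, 0.0804 and 0.0459 in KI, 0.0687 in 6-week WT and 0.216 in 21-day WT. The 10 markers summed to 34.0 scaled FPKM in the KO-labelled library, 33.2 and 34.3 in KI, 37.9 in 6-week WT and 27.9 in 21-day WT. Nearly all of that was Pecam1 and Epcam, the only 2 that passed the filter on low values. They were at 26.1 and 5.39 in the KO-labelled library and at 23.3 and 4.12 in 21-day WT, so the sum says little about the others. The part of stromal or epithelial cells in the Lgals7 level was not tested. GENCODE M21 places an antisense gene, Gm10648, over this locus, and the strand setting is not given, so reads of both cannot be separated.

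Lgals3, the chimera galectin (ENSMUSG00000050335, chr14:47367751-47386160, + strand), was at 81.9 scaled FPKM in the KO-labelled library, 10.2 and 11.4 in KI, 11.4 in 6-week WT and 3.43 in 21-day WT. The KO-labelled library stood apart, the KI libraries and 6-week WT had overlapping bounds, and 21-day WT was lowest, with bounds below those of every other library. The KO-labelled library was 23.8-fold above 21-day WT and 7.18-fold above 6-week WT in scaled FPKM, or 4.22 (3.89 to 4.56) and 2.74 (2.40 to 3.08) on the log2 scale. KI averaged 10.8 ± 0.859 scaled FPKM (SD, n = 2) and differed from 6-week WT by -0.07 on the log2 scale (SE 0.28, limma adjusted p = 0.93). The same KI libraries were 1.34 and 1.48 above 21-day WT, which is the size of the difference between 6-week WT and 21-day WT, 1.48 (1.04 to 1.93). The KO-labelled library was thus far above its control of the same age, while the bounds of KI overlapped those of its own. By sign alone, 54.3% of all tested genes had the KO-labelled library and both KI libraries on opposite sides of their controls, and for Lgals3 KI replicate 2 differed by only -0.00011. Macrophages also express Lgals3. The summed myeloid markers given above were 186 scaled FPKM in the KO-labelled library, against 316 in 6-week WT and 183 in 21-day WT. Most of the first and last of these sums came from Ctss and Cst3, so they say little about the other markers. Ctss and Cst3 were at 119 and 44.8 in the KO-labelled library and at 143 and 29.1 in 21-day WT. Of 10 tested myeloid genes, 7 were higher and 3 lower in the KO-labelled library than in 21-day WT, and all 10 were lower than in 6-week WT. The counts over all tested genes were 5768 higher and 5490 lower against 21-day WT, and 5444 higher and 5781 lower against 6-week WT. Csf1r and Fcer1g passed the filter on low values only through 6-week WT. For these genes a lower level than in 6-week WT was thus in part set by the filter. Lyz2, the lysozyme of macrophages, was at 9.06 in the KO-labelled library, 14.98 and 2.90 in KI, 25.9 in 6-week WT and 3.77 in 21-day WT. Summed NK cell markers were 21.8 scaled FPKM in the KO-labelled library, 2.83 and 2.27 in KI, 8.76 in 6-week WT and 3.36 in 21-day WT. Of those 8 markers 4 were highest in the KO-labelled library, Gzma at 14.9, Eomes at 2.76, Klrk1 at 2.13 and Klrb1c at 1.82, against 1.54, 0.599, 0.266 and 0.650 in 21-day WT. Klra7, Klra8 and Klre1 were listed at 0 in the KO-labelled library and in both KI libraries. The part of myeloid or NK cells in the Lgals3 level was not tested.

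Lgals8, a tandem-repeat galectin that binds integrins and damaged endosomes (ENSMUSG00000057554, chr13:12439415-12464944, - strand), was at 19.7 scaled FPKM in the KO-labelled library, 28.9 and 22.7 in KI, 27.8 in 6-week WT and 23.9 in 21-day WT. Its highest value was 1.47-fold its lowest, the smallest span of the 5 members, and the KI and WT values overlapped in range. The bounds of KI replicate 1 nevertheless lay above those of 21-day WT. The KO-labelled library was lowest, by 0.26 against 21-day WT (interval of the difference -0.49 to -0.03) and by 0.48 against 6-week WT, on the log2 scale. Its bounds overlapped those of 21-day WT but not those of 6-week WT. Without scaling of the FPKM the difference from 21-day WT turned to 0.11. KI averaged 25.8 ± 4.45 scaled FPKM (SD, n = 2), a log2 difference of -0.12 from 6-week WT (SE 0.27, limma adjusted p = 0.88). The protein-coding gene Heatr1 overlaps this locus on the opposite strand in GENCODE M21, so reads of the overlap cannot be assigned without the strand setting.

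Lgals9, the tandem-repeat galectin known as a ligand of Tim-3 (ENSMUSG00000001123, chr11:78962974-78984946, - strand), was at 63.3 scaled FPKM in the KO-labelled library, 45.2 and 60.8 in KI, 83.1 in 6-week WT and 65.2 in 21-day WT. 6-week WT was highest and both KI libraries lay below both WT libraries, as in 1902 of the 11294 genes (16.8%). KI replicate 2 and 21-day WT had overlapping bounds. KI averaged 53.0 ± 11.1 scaled FPKM (SD, n = 2), a log2 difference of -0.66 from 6-week WT (SE 0.29, limma adjusted p = 0.51). The KO-labelled library differed from 21-day WT by -0.04 (-0.17 to 0.09), or by 0.34 without scaling of the FPKM, and from 6-week WT by -0.39. Lgals9 is also expressed by myeloid cells, whose markers were highest in 6-week WT, and their part in its level there was not tested.

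For the deletion of Malt1, 3 of the 5 galectins, Lgals1, Lgals3 and Lgals7, were past 2-fold above 21-day WT in the KO-labelled library, where 693 of the 11294 genes (6.14%) were. Lgals8 and Lgals9 were not past 2-fold in either direction. Against 6-week WT Lgals3 and Lgals7 were past 2-fold above, with a background of 3.3%, and against both WT libraries at the same time the background was 2.17%. Lgals1, Lgals3 and Lgals7 had their highest value in the KO-labelled library, as had 24.6% of all tested genes. The median difference of the 5 members from 21-day WT was 1.67 on the log2 scale, beside 0.02 over all tested genes. There is 1 library in each of these groups, so none of these differences has a replicate check and no test was made. The KO-labelled library was also shallow and 21-day WT deep, so genotype and depth cannot be told apart between them. The galectins were chosen with earlier results of these data known. Shares over all tested genes, here and below, therefore describe the members and do not test them.

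For the inactive protease, none of the 5 galectins was called in KI against 6-week WT by limma at an adjusted p of 0.05. The call rate was 0% of all genes for higher and 0.00885% for lower levels, where the call was the short mitochondrial tRNA gene mt-Tp, named after its value was seen. At an unadjusted p of 0.05 Lgals7 was the only member past the threshold, where 1211 of the 11294 genes (10.7%) were. By size, Lgals7 was past 2-fold above 6-week WT in each KI library (background 3.01%), and no member was past 2-fold below it in both (background 2.8%). Set against 21-day WT, Lgals3 and Lgals7 were more than 2-fold higher in KI replicates 1 and 2 (background 0.398%), so the choice of control decides where Lgals3 falls. The median difference of the members from 6-week WT was -0.12, beside -0.0045 over all tested genes.

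**Figure D3:**
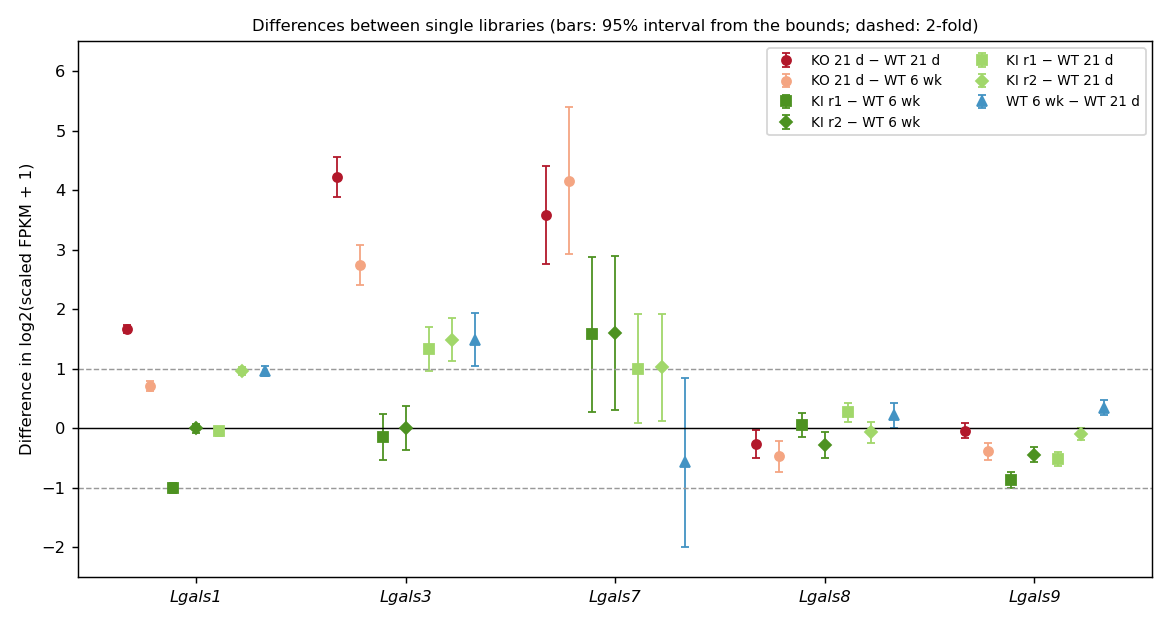
Differences in log2(scaled FPKM + 1) between libraries (vertical axis) for each galectin gene (horizontal axis), with bars for the 95% interval from the deposited bounds and dashed lines at 2-fold. The KO-labelled library lies 4.22 and 2.74 above the WT libraries for Lgals3 and 3.58 and 4.16 above them for Lgals7, while for Lgals3 both KI libraries lie within their intervals of 6-week WT.

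Taking the 3 mutant libraries against the 2 WT libraries, Lgals7 was the only galectin with all mutant values above all WT values, as in 829 of the 11294 genes (7.34%). Its difference was 2.16 on the log2 scale (SE 0.81, unadjusted p = 0.036 and adjusted p = 1.0 in limma), and it was higher in 3 of 3 mutant libraries. Limma called 0 genes in this comparison at an adjusted p of 0.05, and 297 (2.63%) at an unadjusted p of 0.05. Lgals7 was 1 of 15 genes (0.133%) past 2-fold above both WT libraries in all 3 mutant libraries, and it passed by a narrow margin. Its smallest difference was 1.001, and it was 0.95 without scaling of the FPKM and 0.99 with upper-quartile scaling, both short of 2-fold. Among the other 14, named after their values were seen, were Ccl1, a chemokine of activated T cells, Il1r2, the decoy receptor for interleukin 1, Iigp1, an interferon-induced GTPase, and Ifitm2, an interferon-induced membrane protein. Lgals3 differed by 1.61 (SE 0.94, adjusted p = 1.0), with KI replicate 1 below 6-week WT, and Lgals1 by 0.38 (SE 0.55, adjusted p = 1.0). Lgals8 and Lgals9 differed by -0.13 (SE 0.24) and -0.39 (SE 0.25), with an adjusted p of 1.0 for each in limma.

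The lone WT libraries also differed for some galectins. In 6-week WT against 21-day WT Lgals3 was 1.48 and Lgals1 0.96 higher on the log2 scale, Lgals9 was 0.35 and Lgals8 0.21 higher, and Lgals7 was 0.58 lower with an interval of -2.00 to 0.85. Lgals3 was the only member past 2-fold, where 3.38% of genes were past 2-fold higher. KO and its control were taken at 21 days and KI at 6 weeks, so genotype and age cannot be told apart between the KO-labelled library and KI.

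Of the rest of the family, 5 genes had an entry and 2 passed the filter on low values. Lgals4, a tandem-repeat galectin of the gut, was at 8.45 scaled FPKM in the KO-labelled library, 9.45 and 3.18 in KI, 6.60 in 6-week WT and 3.80 in 21-day WT, so the KI replicates were 2.97-fold apart and spanned both WT libraries. Lgalsl, a galectin-like gene, lay between 1.77 and 3.66 in the 5 libraries, with both extremes in KI. Grifin, a galectin-related gene known from the lens, was at 2.01 scaled FPKM in the KO-labelled library, 0.730 and 0.653 in KI, 0.228 in 6-week WT and 0.149 in 21-day WT. These values of Grifin correspond to 9.59, 8.0, 8.0, 1.0 and 1.99 fragments, so although Grifin, like Lgals7, was highest in the KO-labelled library, then in KI, then in WT, that order rests on very few reads. Lgals2 was listed at 0 in all libraries, Lgals12 was listed at 0 in all but KI replicate 2, and Lgals6, a near copy of Lgals4, was not analysed here.

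Among surface partners of galectins, Lag3 and Havcr2 were past 2-fold higher in the KO-labelled library than in 21-day WT, and Itga4 and Ctla4 were past 2-fold lower, of 15 tested genes in the list. Over all tested genes 6.14% were past 2-fold higher and 8.15% lower. Lag3, a checkpoint receptor that binds galectin 3, was at 60.1 scaled FPKM in the KO-labelled library, 25.7 and 23.4 in KI, 13.1 in 6-week WT and 13.8 in 21-day WT. Every mutant library lay above both WT libraries, as in 7.34% of all tested genes, and the WT values were close together. The KI difference from 6-week WT was 0.86 (SE 0.24, unadjusted p = 0.029, adjusted p = 0.45 in limma), and the KO-labelled library was 2.04 above 21-day WT and 2.12 above 6-week WT. Havcr2, which encodes the galectin 9 receptor Tim-3, was at 7.35 scaled FPKM in the KO-labelled library, 1.36 and 0.911 in KI, 1.52 in 6-week WT and 1.07 in 21-day WT. The KO-labelled library stood alone there, as it did for Lgals3, while Lgals9 was at 63.3 there and at 65.2 in 21-day WT. Lgals3bp, a secreted glycoprotein that binds galectin 3, was at 75.1 in the KO-labelled library, 33.01 and 43.9 in KI, 76.2 in 6-week WT and 45.7 in 21-day WT. Both KI libraries lay below both WT libraries, by 0.98 on the log2 scale against 6-week WT (SE 0.28, limma adjusted p = 0.46).

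Itga4, the integrin alpha 4 chain, was at 10.9 scaled FPKM in the KO-labelled library, 44.0 and 80.3 in KI, 28.6 in 6-week WT and 71.9 in 21-day WT. Ctla4, a checkpoint receptor whose surface stay depends on galectin binding to its glycans, was at 118 in the KO-labelled library, 412 and 246 in KI, 148 in 6-week WT and 396 in 21-day WT. For both genes the KO-labelled library was lowest and the KI range took in 21-day WT but not 6-week WT. Pdcd1, the checkpoint receptor PD-1, was at 20.0 in the KO-labelled library, 5.79 and 11.8 in KI, 22.1 in 6-week WT and 17.9 in 21-day WT. Both KI libraries were below both WT libraries, with a log2 difference of -1.31 from 6-week WT (SE 0.50, limma adjusted p = 0.48). No gene of the list was past 2-fold the same way in KI replicates 1 and 2 (background 5.81%), and limma called none.

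Among enzymes that build galectin ligands, the 3 furthest from 21-day WT in the KO-labelled library had lower levels there. Of 17 tested genes for N-glycan branching and N-acetyllactosamine chains, 8 were higher and 9 lower, with a median difference of -0.18. Over all tested genes 5768 were higher and 5490 lower. Of the 17, 0 were past 2-fold higher and 3 past 2-fold lower, where 6.14% and 8.15% of all tested genes were. Mgat5, which adds the branch that galectin 3 favours, was at 2.77 scaled FPKM in the KO-labelled library, 9.71 and 11.1 in KI, 5.09 in 6-week WT and 12.5 in 21-day WT. Man1a, a mannosidase that opens the way to branching, was at 12.4 in the KO-labelled library, 26.5 and 23.9 in KI, 17.8 in 6-week WT and 36.2 in 21-day WT. C1galt1, which builds core 1 O-glycans, was at 5.90 in the KO-labelled library, 11.5 and 18.5 in KI, 8.76 in 6-week WT and 15.7 in 21-day WT. All 3 were lowest in the KO-labelled library, second lowest in 6-week WT, and none of the 17 was past 2-fold of 6-week WT there. The libraries of low depth were thus the low ones, and the part of depth or library in this order was not tested. Gcnt1, which makes core 2 O-glycan branches, went the other way, at 8.08 in the KO-labelled library, 3.91 and 5.05 in KI, 4.30 in 6-week WT and 3.62 in 21-day WT.

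In KI, 14 of the 17 branching genes were higher and 3 lower than in 6-week WT, with a median of 0.36. Of all tested genes 5562 were higher and 5694 lower, with a median of -0.0045. By size, 0 of the 17 were past 2-fold in KI replicates 1 and 2 (background 5.81%). Against 21-day WT 11 of the 17 were higher and 6 lower, with a median of 0.10. There 5641 of all tested genes were higher and 5603 lower. Slc35a3, the Golgi transporter of UDP-N-acetylglucosamine, had the greatest difference from 6-week WT, with 7.17 and 12.6 scaled FPKM in KI against 3.45 in 6-week WT and 8.07 in 21-day WT. Man2a1, a mannosidase of the same route, had 17.1 and 20.8 in KI against 10.05 in 6-week WT and 17.5 in 21-day WT. For both genes the KI libraries were above 6-week WT and spanned the level of 21-day WT.

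Sialic acid and sulfate caps hide or alter galectin ligands. Of 13 tested genes of that list, 10 were higher and 3 lower in the KO-labelled library than in 21-day WT, with a median of 0.34. Over all tested genes 5768 were higher and 5490 lower. No gene of the list was past 2-fold, where 14.3% of all tested genes were. Against 6-week WT 4 were higher and 9 lower, beside 5444 and 5781 of all tested genes. St3gal6, a sialyltransferase, was at 2.77 scaled FPKM in the KO-labelled library, 1.505 and 0.412 in KI, 4.33 in 6-week WT and 1.74 in 21-day WT. It was the one gene of the list past 2-fold below 6-week WT in both KI libraries, as were 2.8% of all tested genes. Nans and Cmas, which make and activate sialic acid, were at 28.7 and 25.5 in the KO-labelled library, and averaged 20.7 ± 4.07 and 23.2 ± 1.57 in KI (SD, n = 2), against 32.0 and 34.3 in 6-week WT and 22.5 and 19.7 in 21-day WT. St6galnac6 and St6galnac4, which add sialic acid to O-glycans and glycolipids, were at 2.63 and 10.8 in the KO-labelled library, averaged 2.31 ± 0.0576 and 7.496 ± 0.0265 in KI (SD, n = 2), and were at 3.66 and 9.004 in 6-week WT and at 1.60 and 7.17 in 21-day WT. Gne, the enzyme that starts sialic acid synthesis, was at 9.97 in the KO-labelled library, 5.57 and 8.33 in KI, 8.63 in 6-week WT and 6.08 in 21-day WT. All 13 genes were higher in 6-week WT than in 21-day WT, where 5747 of all tested genes were higher and 5491 lower. The control used thus sets the direction here too.

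**Figure D4:**
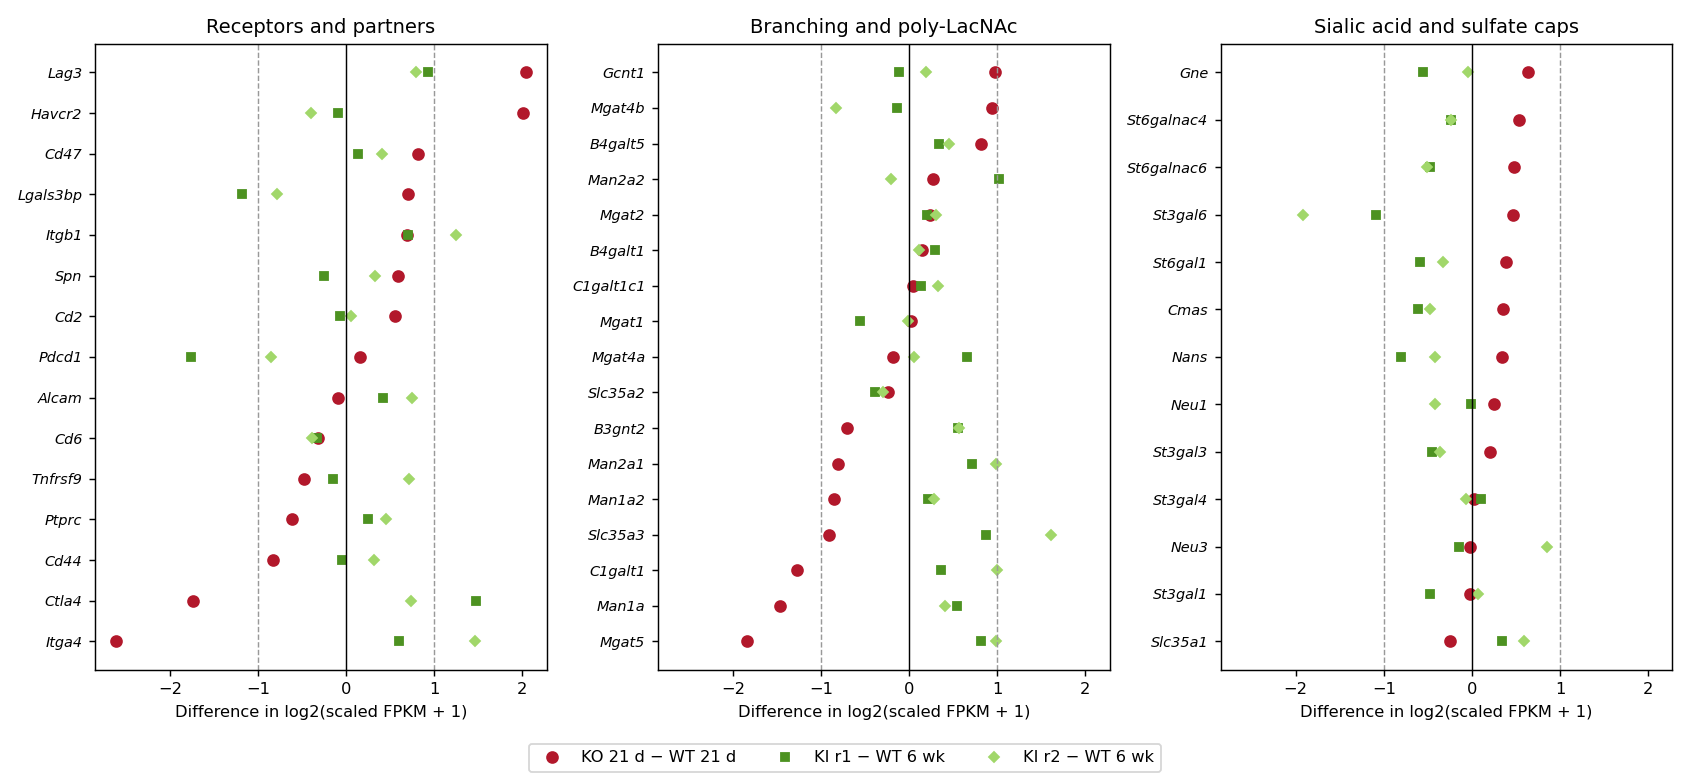
Differences in log2(scaled FPKM + 1) (horizontal axes) for the tested galectin partners (left), glycan branching and poly-N-acetyllactosamine genes (middle) and sialic acid and sulfate cap genes (right), sorted by the difference of the KO-labelled library from 21-day WT. Circles show that difference, and squares and diamonds show KI replicates 1 and 2 minus 6-week WT. Lag3 is above WT in all 3 mutant libraries, and Mgat5 is 1.84 below 21-day WT in the KO-labelled library and 0.90 above 6-week WT on average in KI.

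Galectins 1 and 3 are known to be induced when T cells are activated, and 28 activation and memory genes were set beside them. In the KO-labelled library 6 were past 2-fold above 21-day WT, Anxa1, Anxa2, Gzmb, Nkg7, S100a6 and Vim, and 1, Klrg1, was past 2-fold below it, with a median of 0.53, where 6.14% of all tested genes were above and 8.15% below. Anxa1, at 4.54 scaled FPKM there and at most 0.835 elsewhere, passed the filter on low values only through the KO-labelled library. Its place among the 6 was thus in part set by the filter. Gzmb, which encodes granzyme B, was at 58.7 scaled FPKM in the KO-labelled library, 18.2 and 15.5 in KI, 9.93 in 6-week WT and 7.13 in 21-day WT. S100a6, a calcium-binding protein, was at 222 in the KO-labelled library, 70.4 and 99.9 in KI, 84.9 in 6-week WT and 49.2 in 21-day WT. Both were highest in the KO-labelled library, as were 12 of the 28 genes and 24.6% of all tested genes. Nkg7, a protein of cytotoxic granules, was at 73.8 in the KO-labelled library, 33.3 and 36.2 in KI, 29.1 in 6-week WT and 19.4 in 21-day WT.

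In KI against 6-week WT Ahnak, a large scaffold protein, was past 2-fold higher in both libraries, and Klrg1, a receptor of terminally differentiated effector cells, and S100a4 were past 2-fold lower, of the 28 genes. Over all tested genes 3.01% were past 2-fold higher and 2.8% lower in both KI libraries. Klrg1 was at 4.98 scaled FPKM in the KO-labelled library, 0.699 and 7.16 in KI, 37.3 in 6-week WT and 21.3 in 21-day WT. Every mutant library was below both WT libraries, as in 792 of the 11294 tested genes (7.01%). Ahnak was at 33.5 in the KO-labelled library, 60.4 and 45.9 in KI, 20.6 in 6-week WT and 34.9 in 21-day WT, and Prdm1, which encodes the effector regulator Blimp-1, was at 7.04 in the KO-labelled library, 7.11 and 10.7 in KI, 3.53 in 6-week WT and 4.70 in 21-day WT. S100a4, a calcium-binding protein of memory cells, was at 246 in the KO-labelled library, 94.8 and 83.0 in KI, 191 in 6-week WT and 167 in 21-day WT, so it separated KI from the rest, unlike Lgals1 and Lgals3. Summed proliferation markers were 474 scaled FPKM in the KO-labelled library, 238 and 624 in KI, 299 in 6-week WT and 229 in 21-day WT. They were high in the KO-labelled library and KI replicate 2, where Lgals1 was at 453 and 276, and low in KI replicate 1 and 21-day WT, where Lgals1 was at 137 and 142, while 6-week WT, with Lgals1 at 276, lay nearer to the low libraries. The part of dividing cells in the Lgals1 level was not tested.

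The genes with the most similar profile over the 5 libraries were taken by the root-mean-square difference of centred log2(scaled FPKM + 1). For Lgals3 they were the immunoglobulin segment Igkv12-89, the interferon-induced Ifitm1 and Gzmb, at distances of 0.47, 0.52 and 0.53, and for Lgals7 the cytokine gene Il4, the immunoglobulin segment AC158672.3 and the chemokine gene Ccl1, at 0.32, 0.45 and 0.46. No gene lay within 0.25 of Lgals3 or Lgals7. Igkv12-89 was at 5.91 scaled FPKM in the KO-labelled library and at most 0.685 in any other, and AC158672.3 at 6.75 and at most 0.678. Both segments passed the filter on low values only through the KO-labelled library, which in part sets their likeness. Il4 was at 14.5 scaled FPKM in the KO-labelled library, 2.67 and 2.203 in KI, 0.712 in 6-week WT and 0.675 in 21-day WT, so like Lgals7 it was highest in the KO-labelled library and higher in KI than in WT. For Lgals1 the closest were Tnp2, 2310061C15Rik and Amdhd2, at 0.10, 0.16 and 0.17, with 37 genes within 0.25. For Lgals8 they were Tubgcp3, Atp10d and Paip1, and for Lgals9 Hax1, Tyro3 and Chst10, but 2590 and 2127 genes lay within 0.25 of these nearly level profiles. With 5 libraries, a small distance describes these samples only.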

How the data were processed

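Total RNA of sorted CD4+YFP+ Treg cells was sequenced in 5 libraries. The submitters' processing notes name CASAVA, HISAT2 2.1.0, Cufflinks 2.2.1 and the build GRCm38, while settings, annotation release and strand were not given in those sources. The authors deposited FPKM per gene, with bounds on either side and a status flag, per the file headers, and no counts. The bounds lie 2 standard errors from the value, and effective fragments and depth were estimated from them.

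Each library's FPKM were scaled by the median ratio over 9872 genes with FPKM of at least 1 everywhere, and compared as log2(scaled FPKM + 1), a scale on which low genes change less than in FPKM. A gene was tested when its scaled FPKM averaged 1 or more, and 2 entries whose status was not OK were left out. Two-sided limma 3.58.1 fits with trend (R 4.3.3), adjusted by Benjamini-Hochberg over all 11294 genes, compared KI with 6-week WT and the mutant with the WT libraries. These fits have 1 and 3 residual degrees of freedom, and in the KI fit the lone WT library is taken to vary like KI. Comparisons with 1 library a group were counted by size, past 2-fold on the log2 scale. On simulated data only the size of the estimated differences was checked. How many planted changes such small fits can call is not given here. The galectins and lists (16 in all) were chosen with earlier results of these data known. From each list of partners, enzymes and activation genes the 4 genes with the greatest difference in KI and in KO were named, with 3 nearest profiles per galectin. Other scalings, pseudocounts, filters and controls, and leaving out libraries, were tried. Promoter letters and coordinates are RefSeq's on GRCm38.p6 and gene coordinates those of the files, counted from 1.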

Additional observations from a re-analysis of the deposited data

Results flagged for a closer look

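Lgals3 was singled out because its difference from the WT control of the same age had one sign in the KO-labelled library and the other in both KI libraries, although the KI values were close to their control. The KO-labelled library was 4.22 above 21-day WT on the log2 scale, and KI replicates 1 and 2 lay -0.15 and -0.00011 from 6-week WT, with overlapping bounds. By sign alone, 54.3% of all tested genes met this description. The KO difference less the mean KI difference was 4.30 on the log2 scale, which is given as a description, since KO and each WT age have 1 library. The genotypes were sampled at different ages, so genotype and age cannot be told apart here.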

How the results depend on the processing

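No galectin was called by limma under any alternative run, and for Lgals7 in KI the adjusted p ranged between 0.30 and 1.0. Of 155 galectin values under alternatives, 144 kept their sign and 11 changed it, and a kept sign does not mean a kept size. Lgals1 in KI ranged between -1.01 and 0.00066 with 1 KI replicate left out and was 0.45 against 21-day WT. Lgals3 in KI was 1.41 against 21-day WT and 0.67 against both WT libraries. Lgals8 in KI ranged between -0.29 and 0.055 with 1 left out and was 0.098 against 21-day WT. Over all mutant libraries Lgals1 ranged between -0.098 without 21-day WT and 0.86 without 6-week WT, and was -0.026 without KO, and Lgals3, at 1.61, ranged between 0.67 without KO and 2.35 without 6-week WT. In KO against 21-day WT, Lgals8 and Lgals9 were 0.11 and 0.34 without scaling, beside -0.26 and -0.04 with it, and Lgals9 was 0.0029 with upper-quartile scaling. The cause was not tested. Limma calls in KI numbered 1, and 50 with a pseudocount of 0.1, 2 without scaling, and 0 with upper-quartile scaling, without the filter, without trend, and against 21-day WT (240 at an unadjusted p of 0.05). Over all mutant libraries there were 0, and between 0 and 11 without a library. Genes past 2-fold in KI numbered 656, and 1055 with a pseudocount of 0.1, between 1260 and 1492 on 1 replicate, 134 against 21-day WT and 71 against both WT libraries. In KO they numbered 1613, and 632 against 6-week WT, and between the WT libraries 967, and 1498 with a pseudocount of 0.1. Genes past 2-fold above WT in all mutant libraries numbered 15, between 23 and 59 without a WT library and 35 with a pseudocount of 0.1, alternatives chosen after seeing the data. Without scaling the median gene shifted by -0.26 in KI, 0.35 in KO and 0.35 between WT libraries, and the share of higher calls was 28.7%, 75.4% and 74.4%, beside 51.8%, 43.0% and 39.5% with scaling. Against the other WT library that share was 33.6% in KI and 59.0% in KO. No paired analysis was possible because the groups compared share fewer than 2 replicate numbers. Leaving out a KI replicate leaves no residual degrees of freedom in the KI fit, so those are values with no test. Lgals7 in WT rests on 1.03 fragments at 6 weeks, in the shallowest library, and on 5.25 at 21 days, in the deepest.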
